A study of Mus musculus with 16 samples.

Results

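Genes that cut and cross-link the extracellular matrix were examined in brown adipose tissue (BAT) and gonadal white adipose tissue (gWAT) of mice that lack phosphoglycerate mutase 1 in adipocytes (Adipo-Pgam1 KO, called KO mice here) and of their littermate controls. The 10 genes were the matrix metalloproteinases Mmp2, Mmp3, Mmp9 and Mmp14, their inhibitors Timp1, Timp2 and Timp3, and the lysyl oxidases Lox, Loxl1 and Loxl2. They were found among 22911 named genes through the RefSeq accessions of the array probes, and each was represented by its brightest probe. Total RNA was measured on 16 Agilent arrays with a single dye, 4 for each genotype in BAT and 4 for each in gWAT. All mice were C57BL/6NCrSlc males on normal chow that carried floxed Pgam1 alleles. KO mice (Adipoq-Cre; Pgam1 flox/flox) carried in addition a Cre recombinase driven by the adiponectin promoter, which is active mainly in adipocytes, so that bulk tissue also holds RNA of cells in which the gene was not targeted. Littermate controls, called wild-type in the labels, were Pgam1 flox/flox without Cre. The age was 16 weeks for all arrays other than KO replicate 4 of BAT and of gWAT, where it was 14 weeks. Levels are given as log2 of the intensity over the 75th percentile of the same array, so that 0 is the level of the 75th percentile, and levels of different genes were not compared because probes differ in brightness.

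Matrix metalloproteinases are zinc-dependent enzymes that cleave collagens and other matrix proteins, and they are made as inactive precursors. MMP14 sits in the cell membrane and, together with TIMP2, activates the precursor of MMP2 (a gelatinase). TIMPs bind to the active site of these enzymes and block it. Lysyl oxidases act in the opposite sense, since they oxidize lysines of collagen and elastin so that the fibers become cross-linked. In adipose tissue, both families are known for their part in the remodeling of the matrix around growing or shrinking adipocytes.

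The labels were checked first. In BAT, Pgam1 was at 7.94 ± 0.11 (SD, n = 4) in controls and at 6.20 ± 0.17 in KO mice. In gWAT it was at 6.31 ± 0.25 in the KO-labelled arrays and at 5.36 ± 0.29 in controls, so the targeted gene was higher there under the KO label and went against it. These arrays are therefore named by their label, and every direction in gWAT rests on it. Whether the Pgam1 probes lie in the deleted sequence is not known. Of 6 brown adipocyte markers, 3 could be tested between the KO-labelled arrays and controls of gWAT. Their median difference was -0.36, and only Cidea passed the threshold. Cidea, a lipid droplet protein of brown fat, was at 2.85 ± 0.45 in gWAT controls and at 6.26 ± 0.60 under the KO label (adjusted p = 0.00126), and Ucp1, the uncoupling protein, was above background on none of 4 control arrays and on 3 of 4 KO-labelled arrays. The brown fat transcription factor gene Zic1 was above background in both BAT groups and on no gWAT array, and the gonadal fat gene Wt1 was above background in both gWAT groups and on no BAT array. The contractile gene Myh4 of skeletal muscle was at 5.02 and 2.80 in replicates 1 and 3 of BAT of KO mice, against -4.94 or lower on the other 6 BAT arrays. Results in BAT are therefore also given without these 2 arrays. The 75th percentile itself was lower in BAT controls (401.3 to 451.3 intensity units) than in the other 3 groups (570.3 to 916.2), and under scaling by spike-in probes instead, the median difference of all genes moved from -0.081 to 0.43 in BAT and from 0.047 to 0.56 in gWAT. Slides and groups overlapped in part. On slide 2, control replicate 4 of BAT was hybridized beside all 4 BAT arrays of KO mice, and on slide 3, control replicate 4 of gWAT beside all 4 gWAT arrays with that label.

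Promoter sequences of 5 of the 10 genes were found in a table of RefSeq promoters (build GRCm38.p6). Those of Mmp3 and Timp1, which showed the largest increases in BAT, and of Timp3, which showed no detectable change there, are given to let their start regions be compared. The 250 bases before the annotated start are printed 5′ to 3′ on the strand of the gene. Capitals mark the AP-1 motif TGAGTCA, the GC box GGGCGG and the TATA motif TATAAA, each searched on both strands.
Mmp3, chr9:7445572-7445821, + strand: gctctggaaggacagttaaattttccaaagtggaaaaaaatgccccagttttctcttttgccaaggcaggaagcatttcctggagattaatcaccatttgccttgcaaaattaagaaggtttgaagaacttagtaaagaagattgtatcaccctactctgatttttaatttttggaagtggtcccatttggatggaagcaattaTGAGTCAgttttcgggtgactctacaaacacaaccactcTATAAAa
Timp1, chrX:20869916-20870165, + strand: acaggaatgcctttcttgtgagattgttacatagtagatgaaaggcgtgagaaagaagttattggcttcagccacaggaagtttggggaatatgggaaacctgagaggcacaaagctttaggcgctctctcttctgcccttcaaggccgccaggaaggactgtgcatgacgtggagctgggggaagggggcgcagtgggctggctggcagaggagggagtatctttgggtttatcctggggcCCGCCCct
Timp3, chr10:86300162-86300411, + strand: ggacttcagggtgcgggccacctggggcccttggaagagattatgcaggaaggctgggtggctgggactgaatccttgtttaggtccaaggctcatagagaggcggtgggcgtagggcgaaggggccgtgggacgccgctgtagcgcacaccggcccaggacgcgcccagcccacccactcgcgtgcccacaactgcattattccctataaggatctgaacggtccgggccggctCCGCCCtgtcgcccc
The Mmp3 window held TGAGTCA from base 46 to base 40 before the start and TATAAA from base 7 to base 2. The Timp1 and Timp3 windows held neither, and each had a single GC box on the opposite strand (CCGCCC), which ended 3 bases before the start in Timp1 and 10 bases before it in Timp3. Of the other members with a sequence, Timp2 had 1 GC box and Mmp14 had 2, with no AP-1 or TATA motif. Of all 32851 promoters of the same length, 4.46% held the AP-1 motif, 12.4% the TATA motif and 32.7% the GC box. These matches describe letters and were not tested as binding sites.

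In BAT of KO mice, 5 of the 10 genes were higher than in littermate controls (Mmp2, Mmp3, Mmp14, Timp1 and Timp2), and Lox was lower. The remaining genes, Mmp9, Timp3, Loxl1 and Loxl2, did not pass the threshold, which was an adjusted p of 0.05 in limma over all genes tested. All 10 were among the 14280 genes tested, of which 61.5% passed (27.5% higher and 34.0% lower). The groups did not overlap for 5 of the 10 genes and for 57.1% of all genes tested. The share of the 10 genes past the threshold was therefore close to that of all genes, whereas their median difference of 1.06 stood beside a median of -0.081 over all genes tested. The tissue was measured in bulk, so that more cells of a type and more RNA per cell cannot be told apart. The 7 macrophage markers were all higher on the same arrays, with a summed level of 6.32 to 7.02 against 4.05 to 4.83 in controls.

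Among the proteinases, Mmp3 (stromelysin, which cleaves proteoglycans and fibronectin) changed most. Its level in BAT was -0.97, -0.13, -1.94 and -1.14 in control replicates 1 to 4, and 1.66, 2.15, 1.62 and 1.87 in KO mice. Every KO array was above every control. The log2 difference was 2.87 (standard error 0.33, adjusted p = 1.25e-04), a 7.32-fold higher level. Mmp14 (the membrane-bound activator) was at -2.77, -2.96, -3.04 and -2.98 in controls and at -1.65, -0.86, -1.65 and -1.21 in KO mice. The controls lay close together, and the groups did not overlap. Its difference was 1.59 (standard error 0.18, adjusted p = 1.21e-04), but 0.69 when the background was corrected with the normexp method, still past the threshold. Mmp2 (gelatinase A) was at 0.85, 0.94, 0.77 and 0.50 in controls and at 1.57, 2.10, 1.78 and 2.02 in KO mice. It was higher on each of the 4 arrays than on any control, by 1.1 on average (standard error 0.15, adjusted p = 2.75e-04). Mmp9 (gelatinase B, made largely by myeloid cells) differed from these in its spread. It was at -2.61, -3.54, -0.61 and -3.83 in controls, and at -1.17, -1.74, -1.66 and -3.65 in KO mice. The groups overlapped because control replicate 3 was high and KO replicate 4 was low, and the probe was well above background on 3 of the 4 control arrays. The difference of 0.59 had a 95% confidence interval from -1.15 to 2.33 (adjusted p = 0.524).

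Among the inhibitors, Timp1 showed the largest difference of all 10 genes. It is an inducible and secreted inhibitor. Its level in BAT was -0.68, -0.89, -0.37 and -1.28 in controls and 3.22, 3.0, 1.80 and 4.15 in KO mice. All 4 arrays were well clear of the controls, with replicate 4 the highest and replicate 3 the lowest. The difference was 3.84 (standard error 0.44, adjusted p = 1.16e-04), or 14.4-fold. Timp2 (the partner of MMP14) was at 4.13, 4.23, 4.15 and 3.84 in controls and at 5.11, 5.69, 5.57 and 5.36 in KO mice. The groups did not overlap, and the difference was 1.35 (standard error 0.15, adjusted p = 1.00e-04). In contrast, Timp3 (an inhibitor that binds to the matrix itself) was at 4.81, 5.34, 4.86 and 4.81 in controls and at 5.21, 4.74, 5.23 and 4.90 in KO mice. The values were interleaved, and the difference was 0.065 (95% confidence interval -0.31 to 0.44, adjusted p = 0.750). Under spike-in scaling it was 0.57 (adjusted p = 0.0409).

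The lysyl oxidases showed another pattern. Lox, the founding member of the family, was at 0.50, 0.79, 1.04 and 0.81 in controls and at 0.065, 0.10, -0.17 and 0.60 in KO mice. Control replicate 1 lay below KO replicate 4, so that the groups overlapped. The difference of Lox was -0.64 (standard error 0.18, adjusted p = 0.0139), and this call was lost with the slide as a fixed block (-0.66, adjusted p = 0.109), though not as a random block (-0.64, adjusted p = 0.0238), under spike-in scaling (-0.13, adjusted p = 0.418) and without the 2 arrays with muscle transcripts (adjusted p = 0.120). Loxl2 (which cross-links collagen IV of basement membranes) was at 1.36, 0.70, 1.40 and -0.25 in controls and at 0.99, 2.41, 1.77 and 2.11 in KO mice. Its difference of 1.02 did not pass the threshold (standard error 0.42, adjusted p = 0.0610), but it did in 10 of 23 alternatives, among them normexp background (adjusted p = 0.0190) and spike-in scaling (adjusted p = 0.00700). Loxl1 (linked to elastic fibers) was at 3.13, 2.82, 2.01 and 0.45 in controls and at 2.14, 2.92, 2.55 and 2.62 in KO mice, with a difference of 0.46 (standard error 0.53, adjusted p = 0.474). In both genes control replicate 4 was the lowest BAT array, and this was the single control on the slide of the KO arrays. With the slide as a fixed block, Loxl1 differed by 2.11 (adjusted p = 0.00560) and Loxl2 by 2.07 (adjusted p = 0.0125). Without control replicate 4, the differences were -0.096 and 0.67. The values of Loxl1 and Loxl2 in BAT thus turned on 1 array.

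**Figure D1:**
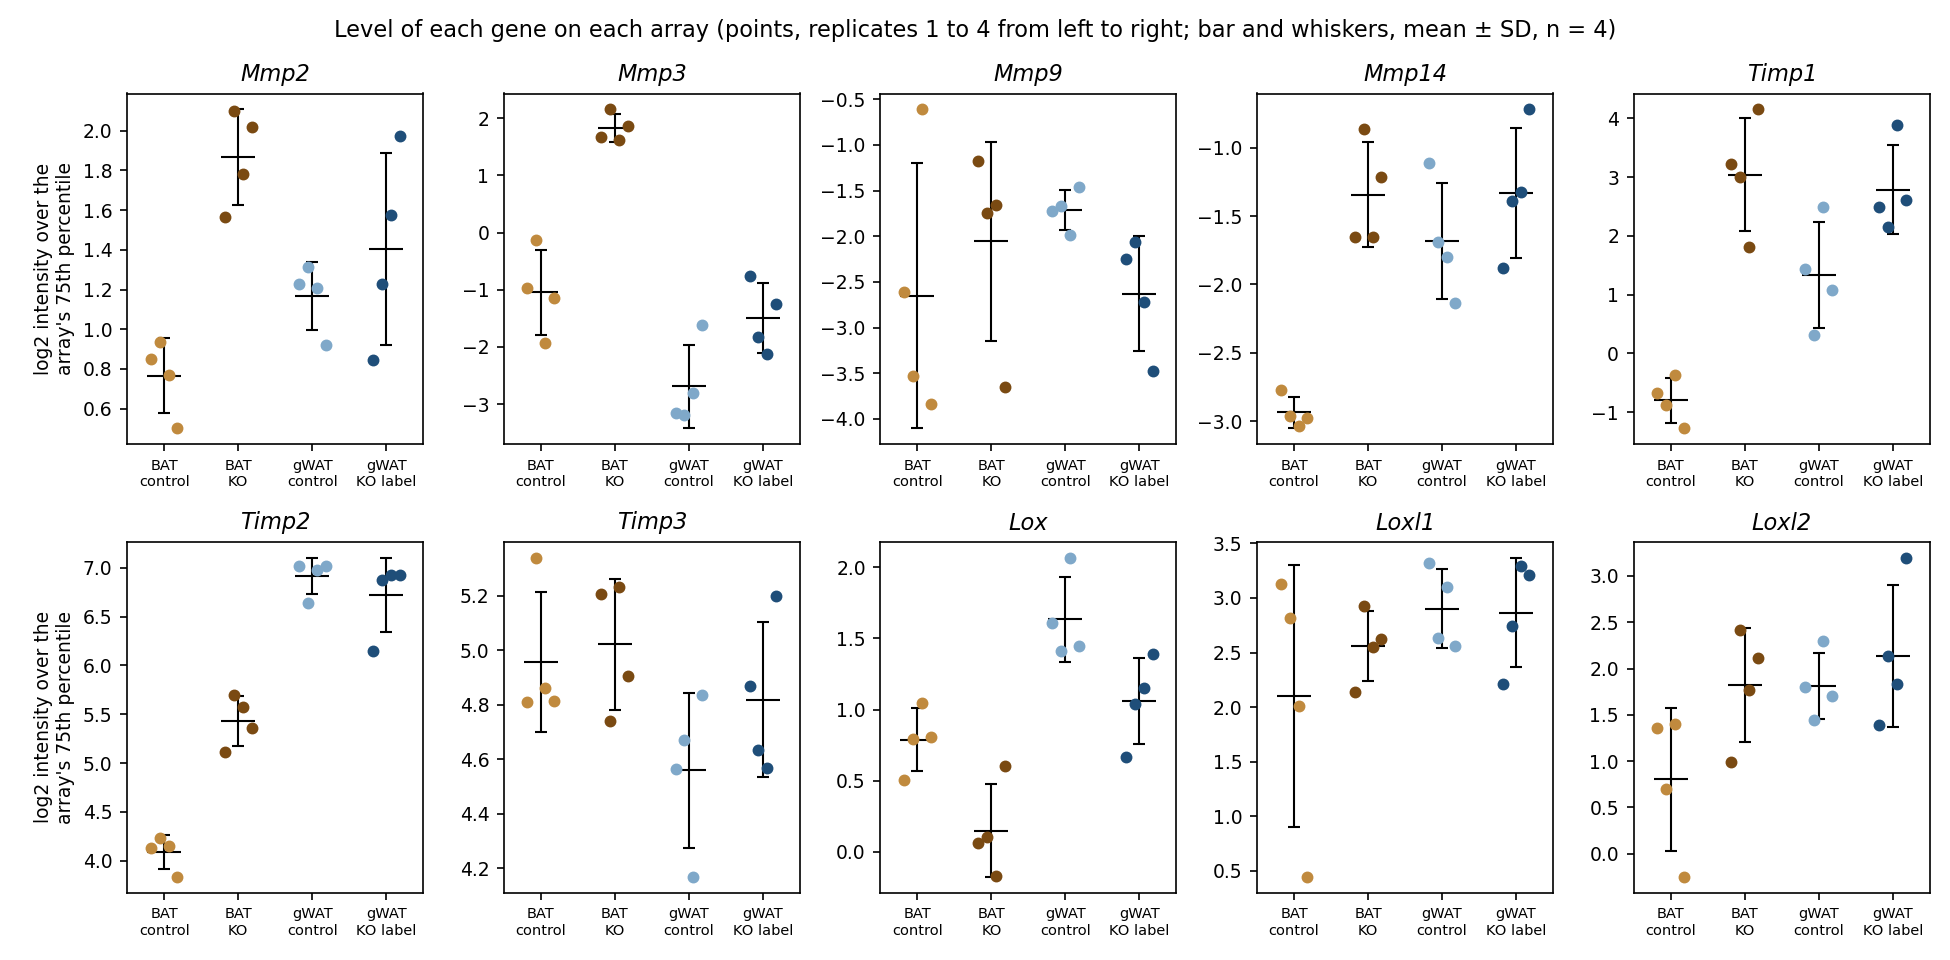
Log2 intensity over the 75th percentile of the array (y axis, a separate range for each gene) of the 10 genes in the 4 groups (x axis), with a point per array and the mean ± SD (n = 4). In BAT, the KO arrays lie above all controls for Mmp2, Mmp3, Mmp14, Timp1 and Timp2, and in Loxl1 control replicate 4 stands at 0.45, below the other 3 controls at 2.01 to 3.13.

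Slide 2 held all 4 BAT arrays of KO mice and, of the BAT controls, only replicate 4. For the 5 genes that had risen, every KO array lay above every control, so that their direction on this slide was given in advance. The differences there were 1.37 for Mmp2, 2.97 for Mmp3, 1.64 for Mmp14, 4.32 for Timp1 and 1.60 for Timp2. The values there of the other genes were -0.66 for Lox, 1.78 for Mmp9 and 0.21 for Timp3. Each of the 5 was past the threshold in all 23 alternatives tried in BAT. Control replicate 4 was the lowest BAT control in 6 of the 10 genes (Mmp2, Mmp9, Timp1, Timp2, Loxl1 and Loxl2). Among the KO arrays, replicate 2 was the highest in 6 (Mmp2, Mmp3, Mmp14, Timp2, Loxl1 and Loxl2). Without replicates 1 and 3, the arrays with muscle transcripts, 6 genes were higher and none lower, since Loxl2 passed (1.46, adjusted p = 0.0411) and Lox did not. The differences of Mmp9 and Timp3 changed sign, to -0.049 and -0.13, and did not pass the threshold with or without these arrays.

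In gWAT, none of the 10 genes passed the threshold in limma between the KO-labelled arrays and controls, where 17.8% of the 14149 genes tested did (9.99% higher and 7.85% lower). At an unadjusted p of 0.05, 4 of them passed in limma (Mmp3, Mmp9, Timp1 and Lox), where 34.7% of all genes tested did. The same 4 passed in the methods' t-test, where 33.0% of all genes did, and after adjustment that test called none. The median difference of the 10 genes was 0.25, against 0.047 over all genes tested. Timp1 was at 1.43, 0.31, 2.48 and 1.08 in controls and at 2.49, 2.15, 3.88 and 2.62 in the KO-labelled arrays. Only control replicate 3 reached into the other group, and the difference was 1.46 (95% confidence interval 0.33 to 2.59, adjusted p = 0.0739). Mmp3 was at -3.15, -3.19, -2.80 and -1.62 in controls and at -0.76, -1.83, -2.13 and -1.25 in the KO-labelled arrays. The overlap came from control replicate 4, the single control on the slide of these arrays. The difference was 1.20 (adjusted p = 0.0722), but 0.13 within that slide.

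The groups did not overlap in gWAT for Mmp9 and for Lox, as was the case for 24.2% of all genes tested. Mmp9 was at -1.73, -1.67, -1.99 and -1.46 in controls and at -2.25, -2.06, -2.72 and -3.48 in the KO-labelled arrays, of which 3 were well above background. All 4 lay below the controls, with a difference of -0.92 (standard error 0.29, adjusted p = 0.0608). Lox was at 1.61, 1.41, 2.07 and 1.45 in controls and at 0.67, 1.04, 1.15 and 1.39 in the KO-labelled arrays, with a difference of -0.57 (standard error 0.20, adjusted p = 0.0818). On this brightest probe, the difference of Lox in gWAT was similar in size to that in BAT, whereas the second probe gave -0.25 and -0.88. Within the slide of the KO-labelled arrays, the differences were 1.71 for Timp1, -1.17 for Mmp9 and -0.39 for Lox. For Mmp9 and Lox the direction there was given in advance, since their groups did not overlap. The other 6 genes differed by -0.19 (Timp2) to 0.36 (Mmp14), and their groups overlapped. In the KO-labelled arrays, replicate 1 was the lowest in 6 genes (Mmp2, Mmp14, Timp2, Lox, Loxl1 and Loxl2) and replicate 4, from a mouse of 14 weeks, the highest in 6 (Mmp2, Mmp14, Timp2, Timp3, Lox and Loxl2). For Loxl2, these arrays ran from 1.39 to 3.19, a wider range than the 1.44 to 2.29 of the controls. With all 16 arrays in the fit, Mmp3 and Timp1 passed as higher and Lox as lower.

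**Figure D2:**
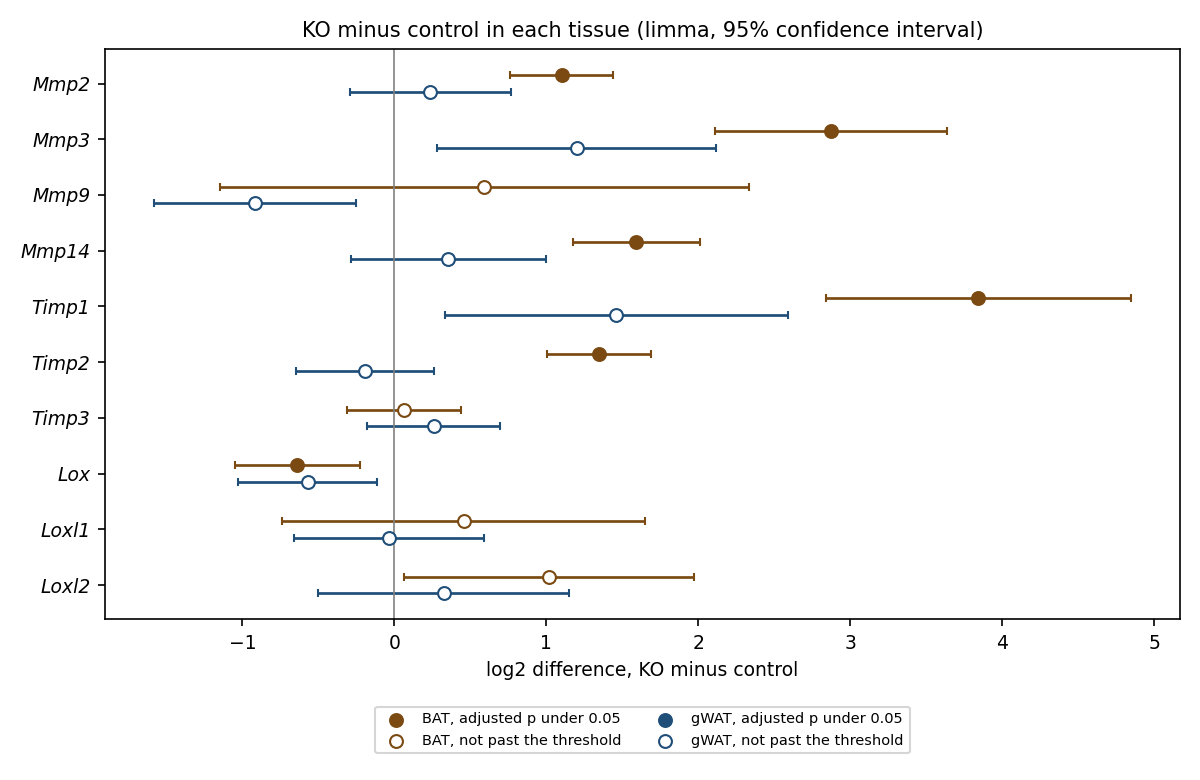
Log2 difference between KO and control (x axis) of the 10 genes (y axis) in BAT and in gWAT, with 95% confidence intervals from limma and filled points where the adjusted p was under 0.05. In BAT, 5 genes lie to the right of 0 and Lox to the left with filled points, whereas all points of gWAT are open.

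Whether the genotype difference itself differed between the tissues was tested as an interaction over all 16 arrays, the same arrays as in the comparisons within each tissue. It was lower in gWAT than in BAT for 5 of the 10 genes and higher for none, where 48.3% of the 14820 genes tested passed (21.0% in this direction and 27.4% in the other). These were the genes that had risen in BAT. The difference in gWAT minus that in BAT was -2.38 for Timp1 (standard error 0.72, adjusted p = 0.0136), -1.67 for Mmp3 (standard error 0.57, adjusted p = 0.0245) and -1.54 for Timp2 (standard error 0.26, adjusted p = 2.76e-04). It was -1.24 for Mmp14 (adjusted p = 0.0104) and -0.86 for Mmp2 (adjusted p = 0.0226). With the slide as a fixed block, 2 of these passed (Mmp3 and Timp2), and with spike-in scaling 3 (Mmp3, Timp1 and Timp2). The fixed block gave -2.61 for Timp1 (standard error 1.20), -0.88 for Mmp2 (standard error 0.45) and -0.83 for Mmp14 (standard error 0.56), and spike-in scaling gave -0.86 for Mmp2 (standard error 0.43) and -1.23 for Mmp14 (standard error 0.51). With the slide as a random block, all 5 passed. Mmp14 also did not pass with the normexp background (-0.39, adjusted p = 0.199), nor Mmp3 without control replicate 3 of BAT or replicate 3 of the KO-labelled gWAT arrays. For Lox, the interaction was 0.068 (95% confidence interval -0.53 to 0.67), so that a difference of that size between the tissues could not be told from 0.

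The depots were next compared within each genotype. In controls, 7 of the 10 genes passed, of which Mmp3 was higher in BAT than in gWAT and 6 were lower, beside 64.7% of the 14304 genes tested (35.4% higher in BAT and 29.3% lower). Timp2 differed most, from 4.09 ± 0.17 (SD, n = 4) in BAT to 6.91 ± 0.19 in gWAT, a difference of -2.83 (adjusted p = 1.33e-06). Timp1 was at -0.80 ± 0.38 in BAT and at 1.33 ± 0.90 in gWAT, a difference of -2.13 (adjusted p = 0.00212), and Mmp14 differed by -1.25 (adjusted p = 7.19e-04). These 3 genes did not overlap between the depots, nor did Lox and Loxl2, as was the case for 60.8% of all genes tested. Lox differed by -0.85 (adjusted p = 0.00309), Loxl2 by -1.01 (adjusted p = 0.0383) and Mmp2 by -0.40 (adjusted p = 0.0302). The calls of Loxl2 and Mmp2 were lost in 7 and 8 of the alternatives, and that of Lox with the slide as a fixed block (adjusted p = 0.0578). Loxl2 differed by -2.10 within slide 2, which held BAT control replicate 4 and 3 gWAT controls. Mmp3 ran the other way, with -1.05 ± 0.74 in BAT and -2.69 ± 0.73 in gWAT, a difference of 1.64 (adjusted p = 0.0107). Within slide 2, the 7 genes kept their direction, which was given in advance for the 5 that did not overlap. Mmp9 was not past the threshold (-0.94, adjusted p = 0.213), but it was without control replicate 3 of BAT (-1.62, adjusted p = 0.00212). These comparisons use the same control arrays as those between genotypes.

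In the KO-labelled arrays, 3 of the 10 genes passed between the depots, beside 46.1% of the 14449 genes tested (23.4% higher in BAT and 22.7% lower). The same 3 did not overlap, as was the case for 43.1% of all genes tested. Here the slide and the depot cannot be told apart. Mmp3 was at 1.83 ± 0.24 (SD, n = 4) in BAT and at -1.49 ± 0.61 in gWAT, so that BAT was 3.32 higher (adjusted p = 4.62e-05). Timp2 was still lower in BAT, by -1.29 (adjusted p = 0.00135), and so was Lox, by -0.91 (adjusted p = 0.00652). Lox did not pass without the 2 arrays with muscle transcripts (-0.71, adjusted p = 0.0639). Timp1 was at 3.04 ± 0.97 in BAT and at 2.78 ± 0.76 in gWAT, and Mmp14 at -1.34 ± 0.38 and -1.33 ± 0.48. The confidence interval of the depot difference ran from -0.91 to 1.43 for Timp1 and from -0.62 to 0.59 for Mmp14. In order of their means over the 4 groups, Timp1 was thus lowest in BAT controls, followed by gWAT controls, the KO-labelled gWAT arrays and BAT of KO mice, and the neighbors after the first pair did not differ past the threshold. For Timp2 the order was BAT controls, BAT of KO mice, the KO-labelled gWAT arrays and gWAT controls, and only the pair of gWAT groups did not differ past the threshold.

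**Figure D3:**
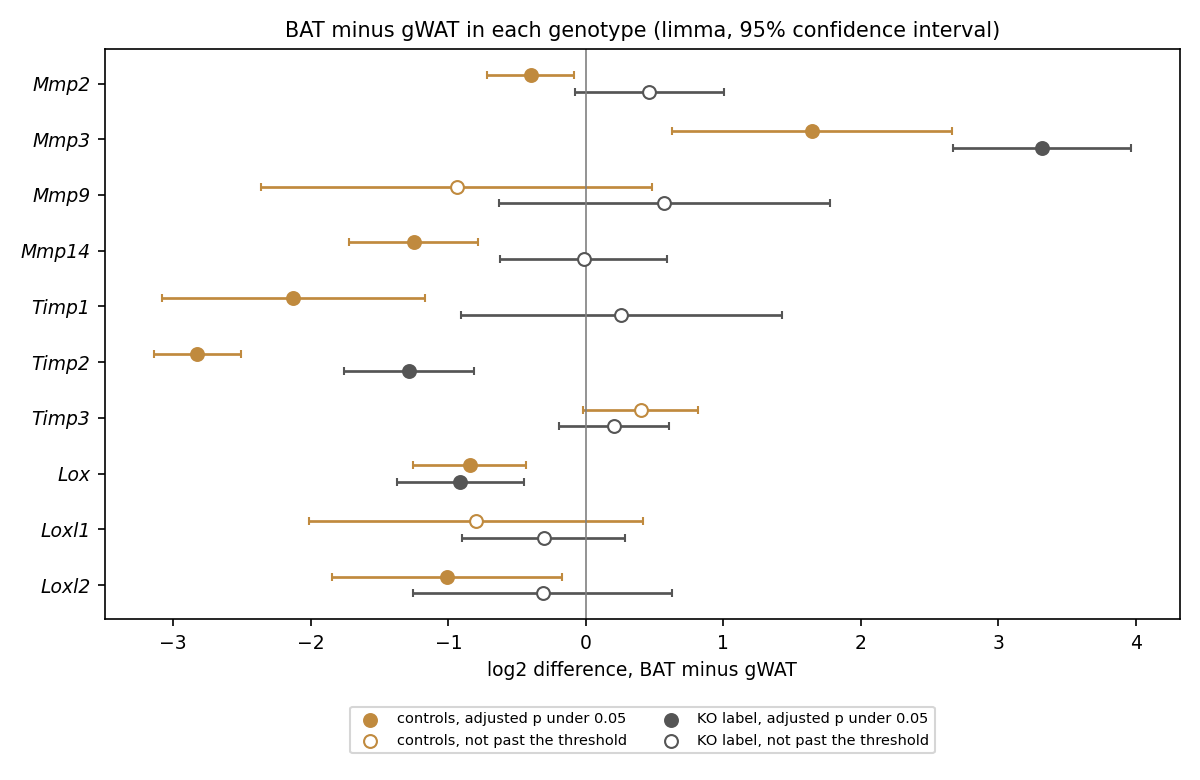
Log2 difference between BAT and gWAT (x axis) of the 10 genes (y axis) in controls and in the KO-labelled arrays, with 95% confidence intervals from limma and filled points where the adjusted p was under 0.05. Timp1 stands at -2.13 in controls and at 0.26 in the KO-labelled arrays, while Mmp3 lies to the right of 0 in both.

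Other genes of the same pathways were read from lists. Of 14 substrates, carriers and activators of lysyl oxidases, 13 were higher in BAT of KO mice and none was lower, with a median difference of 1.17. The fibrillar collagens Col1a1 and Col3a1 were higher by 1.88 (adjusted p = 9.51e-04) and 1.53 (adjusted p = 0.00232), and fibronectin, Fn1, by 1.74 (adjusted p = 0.00112). The exception was Col4a2, a basement membrane collagen, with 0.30 (adjusted p = 0.0643). The count was 12 to 14 under the other scalings, and 12 without the arrays with muscle transcripts. In gWAT, none of the 14 passed, with differences around a median of 0.24. Lox, the enzyme, thus differed in the opposite direction from these 13 in BAT. Its call there was lost under spike-in scaling, with the slide as a fixed block and without the arrays with muscle transcripts. In controls, 8 of the 14 were lower in BAT than in gWAT, as was Lox, and 1 was higher.

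Of 19 other metalloproteinases, 18 were on the array and 7 could be tested. In BAT, 3 were higher and 2 lower in KO mice. Mmp12, the macrophage elastase, was at 0.41 ± 0.26 (SD, n = 4), against -4.59 ± 1.42 in controls, where it was well above background on 1 of 4 arrays (adjusted p = 1.59e-04). Mmp23 was higher by 2.85 (adjusted p = 4.88e-06) and Mmp11 (stromelysin 3) by 2.31 (adjusted p = 1.29e-04). Mmp15, a membrane-type enzyme, differed by -0.63 (adjusted p = 0.0268) and Mmp28 by -0.46 (adjusted p = 0.0106), and neither passed as lower under spike-in scaling or with the slide as a block. The collagenase genes Mmp8 and Mmp13 were above background on 3 of 4 arrays in BAT of KO mice and 1 of 4 in controls, and were not tested. None of the 7 passed in gWAT.

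Timp4, an inhibitor known from heart and adipose tissue, was lower in BAT of KO mice, with a difference of -0.93 (adjusted p = 0.0294), opposite in sign to Timp1 and Timp2. It was the only inhibitor examined that passed in gWAT, with -1.33 (adjusted p = 0.0286), and it passed in neither tissue with the slide as a fixed block. In BAT it also did not pass as lower under spike-in scaling or quantile normalization, nor in gWAT under median scaling. The membrane-anchored inhibitor Reck differed by 0.14 in BAT (adjusted p = 0.454) and by -0.17 in gWAT. The remaining lysyl oxidases, Loxl3 and Loxl4, were higher in BAT by 1.36 (adjusted p = 8.94e-04) and 1.55 (adjusted p = 0.0321), but each was above background on 1 of 4 control arrays, and neither passed with the normexp background.

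Genes of the plasminogen system, which activates precursors of these enzymes, were read next. In BAT, 5 of 6 tested genes were higher in KO mice, among them the urokinase receptor Plaur by 2.05 (adjusted p = 0.0179) and the urokinase Plau by 1.47 (adjusted p = 5.30e-05). Furin, a convertase that activates the precursor of MMP14, differed by -0.66 (adjusted p = 5.61e-04), and it did not pass as lower under spike-in scaling. In gWAT, 3 of 6 were lower and none higher. Serpine2 and Plau differed by -0.62 (adjusted p = 0.0317) and -0.59 (adjusted p = 0.0193), and with the slide as a fixed block none of the 6 passed. The interaction passed for Plau (-2.06, adjusted p = 5.20e-06) and Serpine2 (-1.76, adjusted p = 1.83e-04).

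Of the ADAM and ADAMTS proteases, 7 of 12 tested were higher in BAT of KO mice and 2 lower. Adam8, which myeloid cells express, was higher by 4.68 (adjusted p = 2.32e-05) and Adam19 by 2.10 (adjusted p = 9.75e-05). The aggrecanase Adamts4 was not above background on any BAT control array and was at least 2.30-fold higher (adjusted p = 0.00381). Adam12 differed by -1.96 (adjusted p = 3.09e-05) and Adam9 by -0.36 (adjusted p = 0.0152). Only 1 of the 12 passed as lower under quantile normalization, under spike-in scaling or with the slide as a fixed block. In gWAT, Adamts12 was the only one of 13 that passed, and was at least 2.02-fold lower (adjusted p = 0.0241).

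**Figure D4:**
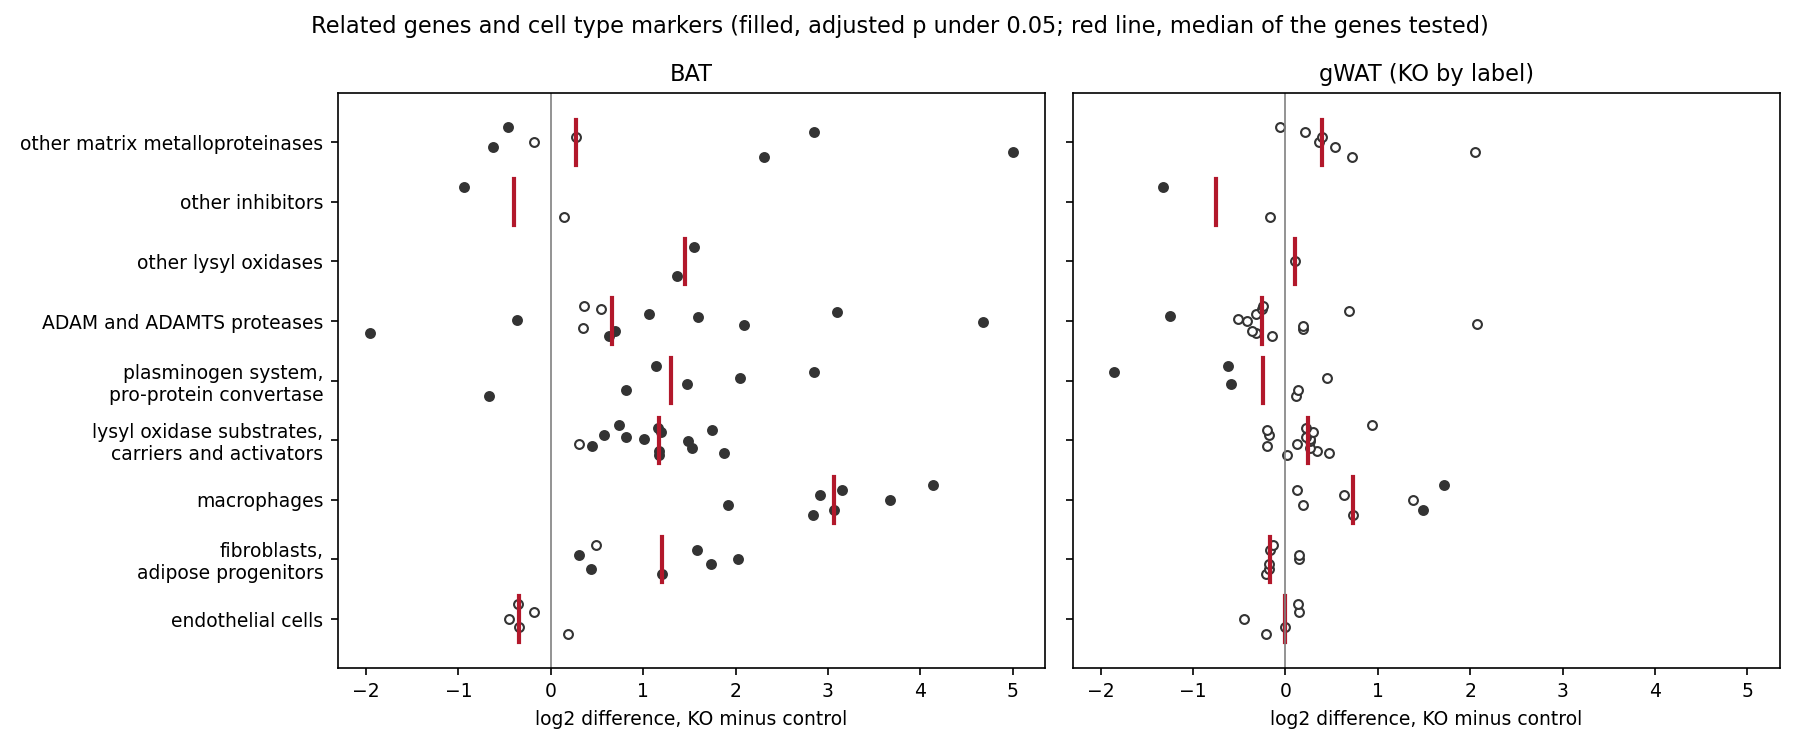
Log2 difference between KO and control (x axis, the same range in both panels) of the genes of each list (y axis) in BAT and in gWAT, with a point per gene, filled where the adjusted p was under 0.05, and a red line at the median. In BAT, 13 of 14 lysyl oxidase substrates, carriers and activators and 7 of 7 macrophage markers lie to the right with filled points, against 0 of 14 and 2 of 7 in gWAT.

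Markers of some other cell types also differed between genotypes in BAT. All 7 macrophage markers were higher in KO mice, and their summed level ran from 6.32 to 7.02, against 4.05 to 4.83 in controls. Of 7 markers of fibroblasts and adipose progenitors, 6 were higher, with a summed level of 7.37 to 7.67 against 6.92 to 7.01. All 5 adipocyte markers were lower (9.55 to 10.02 against 11.16 to 11.29), and none of 5 endothelial markers passed. For pericytes and smooth muscle, 1 of 6 markers was higher and 1 lower. Of the neutrophil markers, 3 of 6 could be tested and 1 was higher, while Cxcr2 and Ngp were above background on no array. In gWAT, the macrophage markers Cd68 and Trem2 were higher and the other 5 did not pass, with a summed level of 5.93 to 7.70 in the KO-labelled arrays and of 5.80 to 6.37 in controls. Cd68 and Trem2 did not pass under quantile normalization or with the slide as a fixed block. None of the fibroblast markers passed there. Of 6 markers of pericytes and smooth muscle, Acta2 (1.33, adjusted p = 0.0144) and Des (1.52, adjusted p = 0.00373) were higher, with a summed level of 5.79 to 6.44 against 4.71 to 5.35, and neither passed with the slide as a fixed block. Of 6 brown adipocyte markers, 3 could be tested, with a median difference of -0.36, and only Cidea passed, as higher. The summed level of the 6 was 5.53 to 7.01 against 2.57 to 3.37, where Cidea alone had means of 6.26 and 2.85. In controls, all 7 macrophage markers and 6 of 7 fibroblast markers were lower in BAT than in gWAT. The part of these cells in the values of the 10 genes was not tested.

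For each gene above background on all 16 arrays, the 12359 other such genes were ranked by how closely their levels followed it, as the root mean square difference of the centered log2 levels. Timp2 was followed most closely by Mov10 (0.24) and Adamts2 (0.24), Loxl2 by the collagens Col5a1 (0.34) and Col6a1 (0.35), and Loxl1 by Gpr153 (0.39) and Fam171a2 (0.40). The closest to Mmp2 were Madd (0.21) and Aprt (0.23), to Mmp14 Plekho2 (0.23) and Cmtm3 (0.24), to Timp3 Cog3 (0.18) and Vps33b (0.19), and to Lox Parva (0.24) and Atrnl1 (0.26). For the 2 that varied most, the nearest to Mmp3 was Abcc4 (0.63) followed by Ero1a (0.80), and to Timp1 Spc25 (0.72) followed by Epdr1 (0.75). The measure is not scaled to how much a gene varies. The larger values for these 2 therefore do not show that fewer genes followed them. All ranks come from the same 16 arrays, which share tissue, genotype and slide, and they are given as a description.

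A second probe was present for 5 of the 10 genes. That of Timp2 differed between genotypes by 1.82 in BAT and by 0.22 in gWAT, where the brightest probe gave -0.19. That of Lox differed by -0.88 and -0.25, that of Loxl2 by 0.85 and 0.40, and that of Timp3 by 0.066 and 0.18. The second probe of Mmp9 was not above background on any BAT control array. The direction was the same in BAT for the brightest and the second probe of Timp2, Lox, Loxl2, Timp3 and Mmp9, though for Mmp9 it rests on control values below background.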

How the data were processed

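Total RNA from BAT and gWAT was hybridized to 1-colour Agilent arrays, which the authors scanned and read with Feature Extraction 10.7.1.1. The deposited scanner intensities have the local background subtracted, and a second table of theirs, also deposited by the authors, gives linear normalized values. On the log2 scale its median difference from the deposited intensity over the 75th percentile of the array was at most 0.00504. Here, log2 of the same ratio was computed from the scanner intensities of 56605 probes, without control and outlier spots. The 75th percentile lay between 401.3 and 916.2, 50.0% to 62.2% of probes passed the scanner's background test, and no spot was saturated. A symbol was found for 91.9% of probes that carry a RefSeq accession. A gene was represented by its brightest probe and tested if that probe passed the background test on every array of at least 1 of the groups compared. Groups of 4 arrays were compared with limma 3.58.1 (R 4.3.3) with Benjamini-Hochberg adjustment over all genes tested, and the script was tested on simulated data. No source used here ties BAT to gWAT arrays of a mouse. Precision is limited by the number of arrays. Named were all 10 members, up to 3 genes of each list with the largest differences in each direction past the threshold, all genes of lists with 5 or fewer measured members, Pgam1, and the 2 genes closest to each member in pattern. Mmp8, Mmp13, Col4a2, Cxcr2, Ngp, Cd68, Trem2, Acta2, Des, Cidea, Ucp1, Zic1, Wt1 and Myh4 were named after their values were seen. The members and lists were chosen with earlier results of these data known. The alternatives were other scalings, background corrections, filters, probes and tests, the slide or the replicate number as a block, and leaving out arrays. The scanner files used here held the median spot signal, which was used for the normexp correction (offset 50). A gene of the lists that the rule would name is not reported here.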

Additional observations from a re-analysis of the deposited data

Results flagged for a closer look

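In Timp2, control replicate 2 of gWAT (6.64) and replicate 1 of the KO-labelled gWAT arrays (6.15) each lay further below the other 3 arrays of their group than Dixon's test allows, and in Timp3, control replicate 2 of BAT (5.34) lay as far above the other 3. These were 3 of 40 groups examined, where chance flags about 1 in 20.

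The genotype difference in gWAT differed from that in BAT by the interaction in limma for Mmp2 (-0.86), Mmp3 (-1.67), Mmp14 (-1.24), Timp1 (-2.38) and Timp2 (-1.54). In gWAT these values rest on the labels of arrays in which Pgam1 was higher under the KO label, as was the brown adipocyte marker Cidea (by 3.41, adjusted p = 0.00126). Cidea was the only 1 of 3 tested brown adipocyte markers that passed there, and their median difference was -0.36.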

How the results depend on the processing

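Of 1195 values of the 10 genes under the alternatives, 1104 kept their direction and their side of the threshold, 28 gained a call, 28 lost one and 35 changed sign. Among those that changed sign, none was past the threshold under either setting. In gWAT, where no gene passed, 3 passed with all 16 arrays in the fit (Mmp3, Timp1, Lox), 2 under spike-in scaling (Mmp3, Timp1), 1 with the replicate block (Timp1), and 0 to 1 when an array was left out (Lox without KO-labelled replicate 4, Timp1 without control replicate 3, Mmp3 without control replicate 4). Of the 5 interactions, 2 passed with the slide as a fixed block and 3 under spike-in scaling. The replicate numbers were not taken to pair the arrays, since the deviations of same-numbered arrays did not all correlate above 0.1 in any pair of groups, and the block changed no other count of the 10 genes.

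Without the 2 BAT arrays with muscle transcripts, an alternative chosen after the data were seen, the BAT difference became -0.049 for Mmp9 and -0.13 for Timp3, the depot difference in KO became -0.069 for Mmp9, 0.29 for Mmp14 and 0.13 for Loxl2, and the interaction of Lox became -0.13. Without the 14-week arrays, likewise chosen later, the depot difference in KO became 0.14 for Mmp14 and -0.17 for Timp1. In gWAT, spike-in scaling gave 0.32 for Timp2 and 0.48 for Loxl1, the mean of all probes 0.013 for Timp2, the fixed slide block -0.018 for Timp3 and 0.31 for Loxl1, and median scaling 0.086 for Loxl1. The interaction of Timp3 became -0.24 with quantile normalization and -0.23 with the fixed slide block, and that of Lox -0.015 with quantile normalization and -0.016 with normexp. The cause was not tested. With 1 array left out, the BAT difference ran from -0.0054 to 0.19 for Timp3 and from -0.096 to 0.80 for Loxl1, and the gWAT difference from -0.18 to 0.18 for Loxl1 and from -0.028 to 0.57 for Loxl2. The depot difference in KO ran from -0.20 to 0.19 for Mmp14, from -0.11 to 0.67 for Timp1 and from -0.56 to 0.039 for Loxl2, and the interaction from -0.042 to 0.22 for Lox and from -0.83 to 0.060 for Loxl1.

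Over all genes, 2525 passed in gWAT, against 184 with the slide as a fixed block, 2403 with it as a random block, 1087 with the replicate block, 1138 without the filter, 1384 with median scaling, 1614 by the methods' t-test, 4040 with all 16 arrays and 5817 under spike-in scaling, and as few as 1143 with an array left out. The share of calls that were higher moved under spike-in scaling from 44.8% to 78.1% in BAT, from 56.0% to 96.2% in gWAT and from 50.8% to 32.0% between depots in KO, where 4376 genes passed in place of 6664. In gWAT it was 71.0% under median scaling. The interaction passed for 7162 genes, against 3265 with the slide as a fixed and 6011 as a random block. The slide could not be fitted between depots in KO, as no slide held both groups.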
